A study of Mus musculus with 18 samples.

Results

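Chemokines are small secreted proteins that guide migrating cells, and their receptors are cell surface proteins that most often signal through inhibitory G proteins. The genes described here are those whose symbol in the array annotation begins as a chemokine ligand (Ccl, Cxcl, Cx3cl or Xcl), a signalling receptor (Ccr, Cxcr, Cx3cr or Xcr) or an atypical receptor (Ackr), followed by a digit. Only transcript clusters with a single gene symbol were used, with the brightest cluster for each gene, which gave 56 of the 19938 genes measured. They divide by role into 13 constitutive and homing ligands, 14 inflammatory CC ligands (Xcl1 included), 4 neutrophil-attracting CXC ligands, 3 interferon-induced CXC ligands, 11 CC and XC receptors, 7 CXC and CX3C receptors and 4 atypical receptors. Of the 62 genes in the RefSeq gene table that match the name pattern, 55 are among the 56, and the rest are not analysed here. They include the Ccl21 genes, whose product is the best known chemokine of lymphatic endothelium, so the set lacks it.

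Endothelium of mouse embryos was separated by the study into a lymphatic (LEC) and a blood vascular (BEC) fraction, and the RNA of both was measured on 18 arrays (Affymetrix Mouse Gene 1.0 ST). There were 6 groups with 3 arrays each, LEC at embryonic days E14.5, E16.5 and E18.5 and BEC at the same ages, and each replicate came from its own litter. Per the design text, LEC and BEC samples of an age came from matching litters, and the comparison of the vessel types at each age is the one the study set out to make. The tissue is given only as embryonic, no genotype, strain or treatment is named in the labels, and how the cells were separated is given there only through a citation that was not used here.

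In textbook accounts, ligands such as Cxcl12 are made steadily and hold cells in place or set up migration paths, while Ccl2, Ccl3, Cxcl2 or Cxcl10 are switched on by danger signals through NF-kB or interferon signalling. Ligands leave the making cell, bind heparan sulphate on endothelium and are read by receptors on leukocytes or on endothelium itself. Atypical receptors bind ligands without G protein signalling and clear or transport them, and Ackr2 in particular is known as a scavenger of inflammatory CC chemokines on lymphatic endothelium.

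The promoters of the 4 inducible CXC ligands that changed with age are shown first, because all 4 genes lie on chromosome 5 and their changes with age differed between LEC and BEC. Sequences are from the RefSeq promoter table (GRCm38.p6), 250 bases up to the gene start, 5′ to 3′ along the gene. Capitals mark matches to 3 patterns sought on both strands, an interferon-stimulated response element (GAAA, any 2 bases, GAAA), an AP-1 site (TGANTCA) and the NF-kB consensus. The windows lie at chr5:92348890-92349139 on the minus strand for Cxcl10, chr5:92328080-92328329 on the minus strand for Cxcl9, chr5:90890995-90891244 on the plus strand for Cxcl1 and chr5:90903649-90903898 on the plus strand for Cxcl2.
Cxcl10: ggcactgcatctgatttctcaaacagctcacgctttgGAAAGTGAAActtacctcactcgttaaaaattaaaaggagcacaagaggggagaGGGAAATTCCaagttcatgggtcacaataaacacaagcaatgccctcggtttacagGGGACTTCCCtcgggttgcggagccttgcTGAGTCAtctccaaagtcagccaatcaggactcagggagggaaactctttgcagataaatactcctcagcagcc
Cxcl9: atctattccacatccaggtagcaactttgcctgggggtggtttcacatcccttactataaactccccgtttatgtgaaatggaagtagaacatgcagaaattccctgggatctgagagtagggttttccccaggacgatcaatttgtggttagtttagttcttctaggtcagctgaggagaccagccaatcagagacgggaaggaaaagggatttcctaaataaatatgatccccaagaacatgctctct
Cxcl1: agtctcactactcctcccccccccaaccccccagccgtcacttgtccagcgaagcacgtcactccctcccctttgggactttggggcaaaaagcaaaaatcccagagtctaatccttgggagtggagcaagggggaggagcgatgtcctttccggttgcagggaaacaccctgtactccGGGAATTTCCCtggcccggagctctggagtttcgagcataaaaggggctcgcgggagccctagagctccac
Cxcl2: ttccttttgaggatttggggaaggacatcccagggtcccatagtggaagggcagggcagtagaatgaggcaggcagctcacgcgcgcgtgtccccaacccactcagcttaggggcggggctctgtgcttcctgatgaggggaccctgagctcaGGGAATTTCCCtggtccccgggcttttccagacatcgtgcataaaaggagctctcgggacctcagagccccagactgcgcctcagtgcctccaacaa
The Cxcl10 window held 4 matches, with the interferon element at -213 to -204 from the start, NF-kB matches at -159 to -150 and -103 to -94 and the AP-1 match at -74 to -68. Cxcl1 and Cxcl2 each held a pair of overlapping NF-kB matches in the same palindromic run, at -71 to -62 and -70 to -61 in Cxcl1 and at -97 to -88 and -96 to -87 in Cxcl2. In the Cxcl9 window 0 matches to these letters were found. Among 32851 promoters of this length, the interferon element occurred in 2.98%, AP-1 in 6.75% and the NF-kB consensus in 3.9%. Of the 56 genes, 42 had an entry in the promoter table, and among these the interferon element was found in 3 (Ccl19, Cxcl10 and Cxcl14), AP-1 in 4 (Ccl9, Ccr3, Ccr4 and Cxcl10) and the NF-kB consensus in 9 (Ackr2, Ccl20, Ccl9, Ccr3, Ccr6, Cxcl1, Cxcl10, Cxcl2 and Cxcl3). A gamma interferon element (TTCNNNGAA), also sought, was in 7.02% of all promoters and in 4 of the 42. The 42 are counted by gene, with a match in any promoter entry of the gene, while the 32851 are counted by entry. The 2 shares are therefore not in the same unit. A match is a stretch of letters and does not show that a factor binds there.

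All values are log2 RMA levels, in which a difference of 1 is a 2-fold difference. Differences are LEC minus BEC, or later minus earlier age, with the standard error (SE) of the limma fit, and p-values are limma's, adjusted by the Benjamini-Hochberg method over all 19938 genes. Calls required an adjusted p under 0.05. Brightness depends on the probes, so levels are compared between groups for 1 gene and never between genes. Genes of olfactory and vomeronasal receptors gave a bound for dim signal of 4.66, the 95th percentile of their values. Of the 56 genes, 37 had at least 1 group mean above it and 19 had none. The 19 were Ccl28, Cxcl13, Cxcl15, Ccl8, Xcl1, Cxcl3, Cxcl5, Cxcl11, Ccr1l1, Ccr3, Ccr4, Ccr6, Ccr9, Xcr1, Cxcr1, Cxcr2, Cxcr5, Cxcr6 and Ackr4. Where the lower of 2 groups lies below the bound, the size of a difference is uncertain. Probes of close relatives, such as Ccl2 with Ccl7 and Ccl12, Ccl3 with Ccl4 or Ccl6 with Ccl9, may bind one another's RNA, which was not tested.

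The labels were checked on the endothelial markers and the other cell types an isolate could hold. Of 12 lymphatic markers 11 were higher and 0 lower in LEC over the 3 ages (median 3.04), of 12 blood endothelial markers all 12 were lower (median -3.38), and the 8 pan-endothelial genes had 6 lower and 0 higher. The LEC arrays also had higher macrophage (15 of 15 genes), mast cell (10 of 10), pan-leukocyte (6 of 6) and keratinocyte markers (6 of 8), and lower mural cell markers (9 of 9). Other lists had smaller median differences, -0.13 to 0.18. Of 11 lymphocyte genes 5 were higher and 2 lower, and of 6 neutrophil and monocyte genes 3 were higher and 0 lower. Of 8 dendritic cell genes 2 were higher and 1 lower, of 8 fibroblast genes 1 and 3, and of 4 platelet genes 1 and 2. Beside all these lists, 37.1% of all genes were called (18.2% higher and 19% lower). The lymphocyte list had a higher mean log2 level per array in LEC at each age. It was 5.69 to 5.76, 5.82 to 5.86 and 5.77 to 5.91 in LEC, against 5.12 to 5.21, 5.07 to 5.14 and 5.09 to 5.31 in BEC. The counts of lymphatic and blood endothelial markers were the same at each single age. From E14.5 to E18.5, 8 of the 12 blood endothelial markers rose and 3 fell in LEC (median 1.02, 40.9% of all genes called). In BEC 1 of the 12 lymphatic markers rose and 9 fell over that interval (median -1.19, 30.6% of all genes called). In bulk RNA, fewer cells of a type and less RNA per cell cannot be told apart. Values were less spread out on the E18.5 arrays (interquartile range 3.18 to 3.36) than at the earlier ages (3.40 to 3.64).

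LEC and BEC differed in chemokine genes at every age, and most of the large differences lay in a few genes. LEC had higher levels of most inflammatory CC ligands, of Cxcl2, of the receptors Ccr8, Cx3cr1, Ccr2 and Ccr1 and of the scavenger Ackr2. BEC had higher levels of Cxcl12, its receptor Cxcr4, the membrane-bound ligand Cx3cl1 and, at E18.5, the interferon-induced Cxcl10. Over the 3 ages 21 of the 56 genes were higher and 11 lower in LEC, or 57.1% called, against 37.1% of all genes (18.2% higher and 19% lower). Shifting every array to the same median split the 56 into 20 higher and 17 lower. By at least 1, 11 were higher and 4 lower, against 3.71% and 2.64% of all genes. The median difference of the 56 genes was 0.07, beside -0.02 for all genes.

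By single age, E14.5 had 11 of the 56 higher and 5 lower in LEC, against 16.5% of all genes called (8.6% higher and 7.94% lower). E16.5 had 19 and 5, against 25.2% (13% and 12.2%). E18.5 had 19 and 13, against 30.4% (14.6% and 15.9%). By at least 1, there were 7 higher and 2 lower at E14.5 (2.7% and 2.26% of all genes), 13 and 3 for E16.5 (4.64% and 3.07%) and 14 and 6 for E18.5 (4.57% and 3.28%). The medians of the 56 were 0.02, 0.14 and 0.11, beside -0.03, -0.00 and -0.04 for all genes. With a common median the split at E16.5 was 18 higher and 11 lower, with quantile normalization 18 and 8, and with array weights 19 and 9. The 13 lower at E18.5 include Cxcl10, Cxcl9, Cxcl1, Ackr1 and Ccl11, none of which was called at E16.5 except Ccl11.

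With age, from E14.5 to E18.5, 21 of the 56 rose and 4 fell in LEC, or 44.6% called, against 40.9% of all genes. In BEC 13 rose and 2 fell, or 26.8% called, against 30.6% of all genes. These shares lie near those of all genes. Among those that did change, rises outnumbered falls, while all genes were called higher in 19.7% and lower in 21.2% in LEC and in 13.3% and 17.3% in BEC. By at least 1, 11 rose and 3 fell in LEC (4.02% and 3.86% of all genes), and 5 rose and 1 fell in BEC (2.43% and 2.24%). Between E14.5 and E16.5 10 rose and 1 fell in LEC, against 13.8% of all genes called (8.07% and 5.72%), but 5 rose without LEC E16.5 replicate 1 or without replicate 3. In BEC 2 rose and 2 fell over that interval (9.76% of all genes, 5.1% and 4.66%), with 1 rising without BEC E14.5 replicate 1 and 1 falling without BEC E14.5 replicate 1 or 2 or BEC E16.5 replicate 2. Between E16.5 and E18.5 20 rose and 5 fell in LEC (34.4% of all genes, 15.9% and 18.5%) and 19 rose and 2 fell in BEC (32.3%, 15.8% and 16.4%). With quantile normalization the BEC split was 10 and 3. The 19 genes under the dim bound in all groups gave 4 of the 20 rises in LEC and 6 of the 19 in BEC. Of these dim genes, 17 had a positive difference over that interval in LEC and 17 in BEC. From E14.5 to E18.5 they gave 1 of the LEC rises and 3 of the BEC rises.

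The change from E14.5 to E18.5 differed between the cell types for 17 of the 56 genes, or 30.4%, against 8.85% of all genes. It was greater in LEC for 10 (5.02% of all genes) and greater in BEC for 7 (3.83%). The 10 were Ccl12, Cxcl2, Ccl3, Ccl24, Ccl7, Ccl2, Ackr3, Cxcl14, Ackr2 and Cxcl17. The 7 were Cxcl10, Cxcl12, Cxcl9, Ccl17, Cxcl1, Ackr1 and Cxcr6. Between E14.5 and E16.5 the changes differed for 6, 5 toward LEC and 1 toward BEC, against 2.63% of all genes (1.89% and 0.742%). The count toward LEC was 3 without LEC E14.5 replicate 1, LEC E16.5 replicate 1, BEC E16.5 replicate 3 or BEC E14.5 replicate 2. Between E16.5 and E18.5 they differed for 9, 2 toward LEC and 7 toward BEC, against 3.65% of all genes (1.53% and 2.12%). These counts became 4 toward LEC without LEC E16.5 replicate 3, and 4 toward BEC without any 1 of the 6 arrays of E16.5 or BEC E18.5 replicate 2. Over all fits with 1 array left out the count toward BEC was 4 to 6, so the 7 held in none of them. Over the whole interval, the calls of Ackr1, Ackr2, Cxcl14 and Cxcl17 were each lost without some single arrays.

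**Figure D1:**
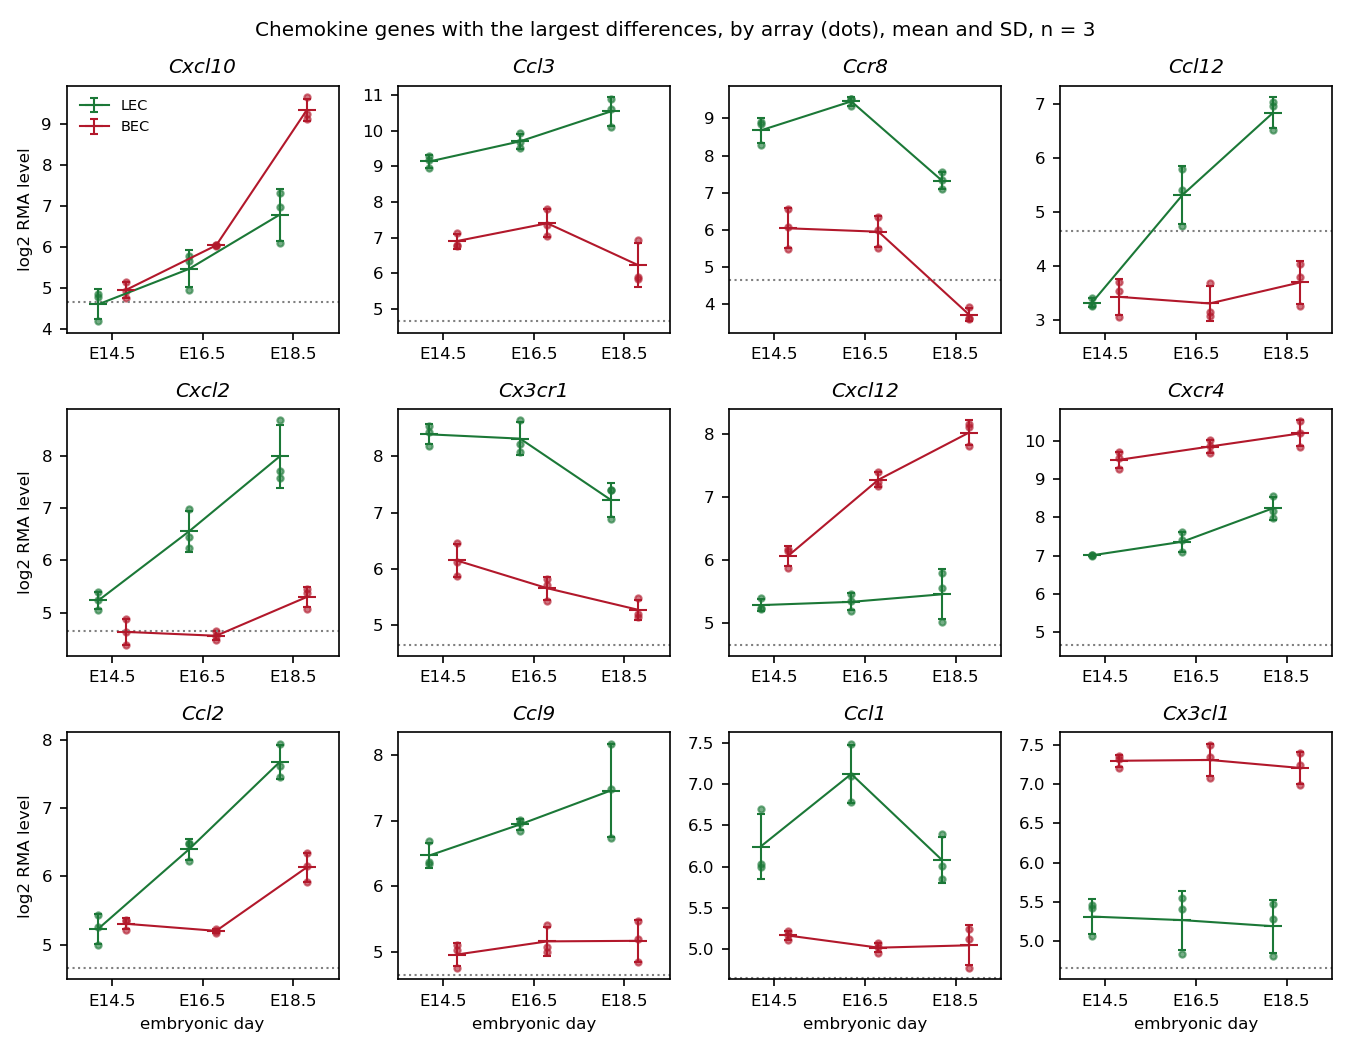
Log2 RMA level (vertical axis, one scale per gene) by embryonic day for the 12 chemokine genes with the largest differences, LEC in green and BEC in red, with a dot for each array, the mean and the SD of 3 arrays; the dotted line is the bound for dim signal. Cxcl10 and Cxcl12 climbed with age in BEC, Ccl12, Cxcl2 and Ccl2 in LEC, while Cx3cl1 and Cxcr4 stayed lower in LEC at each age.

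Inflammatory CC ligands made up the largest group and held the most calls in number. Of its 14 genes 9 were higher and 1 lower in LEC over the 3 ages, with a median difference of 0.90, where 37.1% of all genes were called. The share called was 71.4%, against 75% of the 4 atypical receptors. At E14.5 5 were higher and 0 lower, with a median difference of -0.004, where 16.5% of all genes were called. At E18.5 10 were higher and 2 lower, where 30.4% of all genes were called. The 2 were Ccl11 and Xcl1, of which Xcl1 was under the dim bound in all groups.

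Ccl3, a ligand of Ccr1 that recruits monocytes and other leukocytes, had a level of 9.28, 9.18 and 8.95 in LEC at E14.5, 9.93, 9.67 and 9.50 at E16.5, then 10.61, 10.89 and 10.10 at E18.5. In BEC it had 7.15, 6.77 and 6.80, then 7.04, 7.82 and 7.36, then 6.94, 5.90 and 5.86. All LEC arrays lay above all BEC arrays. Its level was higher in LEC by 2.94 ± 0.15 (SE; 7.68-fold, adjusted p = 3.7e-12), and by 2.23 and 2.29 at the first 2 ages but 4.30 ± 0.26 (19.7-fold) at E18.5. From E14.5 to E18.5 it rose in LEC by 1.40 (adjusted p = 0.0002), against -0.67 in BEC (adjusted p = 0.055).

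Its neighbour Ccl4, which attracts monocytes and lymphocytes, was higher in LEC by 0.90 ± 0.09 (adjusted p = 1.8e-07), with 1.08, 0.85 and 0.78 at the 3 ages, and did not pass the test for a change with age in either cell type.

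Ccl9, a mouse chemokine that acts through Ccr1, had levels of 6.69, 6.34 and 6.38 in LEC at E14.5, 7.01, 6.85 and 6.97 at E16.5, then 7.49, 8.16 and 6.73 at E18.5. The BEC arrays had 5.10, 5.02 and 4.76, then 4.99, 5.42 and 5.08, then 5.48, 4.84 and 5.19. The cell types did not overlap at any age, although the LEC arrays of E18.5 spread widely. The difference was 1.86 ± 0.14 (adjusted p = 1.9e-09), and Ccl9 rose with age in LEC by 0.99 (adjusted p = 0.0031), against 0.21 in BEC (adjusted p = 0.58). Ccl6, a close relative, was higher in LEC by a smaller 0.67 ± 0.08 (adjusted p = 2.1e-06).

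Ccl1, the ligand of Ccr8, had a peak in LEC at E16.5. Its levels there were 6.04, 6.70 and 6.0 at E14.5, 7.49, 7.10 and 6.78 at E16.5, then 6.39, 5.85 and 6.0 at E18.5. In BEC they were 5.18, 5.22 and 5.11, then 5.03, 5.07 and 4.96, then 5.13, 5.24 and 4.78. LEC lay above BEC at each age, with differences of 1.08, 2.10 (adjusted p = 5.6e-08) and 1.03 at the 3 ages. In LEC it rose by 0.88 from E14.5 to E16.5 and fell by 1.04 from E16.5 to E18.5.

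A second set of inflammatory ligands did not pass the test at E14.5 and was higher in LEC at the later ages. Ccl2, the main attractant of Ccr2-bearing monocytes, had levels of 5.26, 5.43 and 5.0 in LEC at E14.5, 6.49, 6.22 and 6.47 at E16.5, then 7.95, 7.62 and 7.46 at E18.5. In BEC the levels were 5.36, 5.22 and 5.34, then 5.20, 5.23 and 5.17, then 6.34, 6.15 and 5.91. The groups overlapped at E14.5 and lay apart at the later ages, LEC above BEC. The differences were -0.07 (adjusted p = 0.84), 1.20 (adjusted p = 1.4e-06) and 1.54 (adjusted p = 4.3e-08) at the 3 ages. Ccl2 rose from E14.5 to E18.5 by 2.45 ± 0.14 in LEC (5.45-fold) and by 0.83 in BEC (adjusted p = 0.00013), and these changes differed (1.62 ± 0.20, adjusted p = 2.6e-05).

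Ccl12, a mouse relative of Ccl2 that also acts through Ccr2, had levels of 3.28, 3.27 and 3.41 in LEC at E14.5, 5.41, 4.74 and 5.81 at E16.5, then 6.52, 7.05 and 6.98 at E18.5. BEC had 3.54, 3.70 and 3.05, then 3.69, 3.08 and 3.15, then 3.25, 4.04 and 3.80. Each array of BEC and those of LEC at E14.5 were under the dim bound, so that only the later LEC arrays gave a signal above it. The difference between the cell types was -0.11 at E14.5 (adjusted p = 0.87), 2.01 at E16.5 and 3.15 at E18.5 (adjusted p = 7.4e-09). In LEC it rose with age by 3.53 ± 0.25 (adjusted p = 3.6e-09), against 0.27 in BEC (adjusted p = 0.47), and the changes differed by 3.26 ± 0.35 (adjusted p = 7.1e-06).

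Ccl7, a monocyte attractant, and Ccl24, which attracts eosinophils through Ccr3, were likewise higher in LEC from E16.5 on. Ccl7 had mean levels of 4.92, 5.85 and 6.85 in LEC and 5.05, 4.73 and 5.03 in BEC at the 3 ages, and its difference reached 1.83 ± 0.16 at E18.5 (adjusted p = 3.7e-08). Ccl24 had means of 4.97, 6.0 and 6.61 in LEC against 5.09, 4.52 and 4.71 in BEC, a difference of 1.90 ± 0.26 at E18.5 (adjusted p = 9.4e-06). Neither differed past the test at E14.5 (-0.12 for both, adjusted p = 0.75 for Ccl7 and 0.86 for Ccl24). With age both rose in LEC, Ccl7 by 1.93 and Ccl24 by 1.64, against -0.02 and -0.37 in BEC, where neither passed the test.

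The exception to this direction was Ccl11, another eosinophil attractant. It was lower in LEC (-0.67 ± 0.10, adjusted p = 1.6e-05), and rose with age in BEC by 0.91 (adjusted p = 0.0004), against 0.36 in LEC (adjusted p = 0.1). Ccl5, a chemokine made by activated lymphocytes among other cells, did not pass the test over the ages (0.14 ± 0.07, adjusted p = 0.14). Ccl26 was called higher in LEC at E18.5, with means of 5.32 in LEC and 4.87 in BEC. That call was lost without LEC E18.5 replicate 1 (0.34) or BEC E18.5 replicate 2 (0.37). In the order of coding genes in RefSeq (GRCm38.p6), Ccl2, Ccl7, Ccl11, Ccl12, Ccl8 and Ccl1 follow one another on chromosome 11, and so do Ccl5, Ccl9, Ccl6, Ccl3 and Ccl4. The first run thus holds Ccl2, Ccl7 and Ccl12, which rose late in LEC, next to Ccl11, which was lower there, Ccl8, which was dim in all groups, and Ccl1 with its peak at E16.5.

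The levels of these ligands were set beside those of other cell types, since macrophages and mast cells are also known to make Ccl2, Ccl3 and their relatives. Macrophage markers had a mean log2 level per array of 5.76 to 5.97 in LEC at E14.5, 6.95 to 7.77 at E16.5 and 7.84 to 8.39 at E18.5, against 4.96 to 5.07, 4.80 to 4.84 and 4.82 to 5.28 in BEC. Of the 15 genes 13 rose with age in LEC and 0 fell, where 40.9% of all genes were called (19.7% higher). Csf1r, the receptor that macrophages need, had means of 6.17, 8.24 and 9.06 in LEC, against 5.09, 5.01 and 5.43 in BEC. The leukocyte marker Ptprc had means of 7.61, 8.36 and 8.35 in LEC, against 5.32, 5.46 and 4.75 in BEC. Mrc1, a macrophage marker that lymphatic endothelium is also known to express, had 9.92, 10.25 and 11.20 in LEC, against 7.09, 5.36 and 5.41 in BEC. Mast cell markers had mean levels of 8.22 to 8.95, 9.70 to 9.72 and 9.36 to 9.79 in LEC at the 3 ages, against 6.50 to 7.17, 7.21 to 7.49 and 5.70 to 7.14 in BEC, with Cpa3 at 12.47, 12.94 and 12.93 in LEC and 10.75, 11.17 and 9.24 in BEC. Of the macrophage list 12, 15 and 15 genes had group means above the dim bound in LEC, against 9, 7 and 9 in BEC, and of the mast cell list 9, 9 and 9 in LEC against 7, 8 and 8 in BEC. Keratinocyte markers, which rose in LEC with age (6 of 8 genes), had levels of 5.52 to 5.67, 5.33 to 6.0 and 6.90 to 7.45 in LEC, against 5.11 to 5.36, 4.94 to 5.18 and 5.89 to 6.24 in BEC. The part of these cells in the chemokine levels was not tested.

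**Figure D2:**
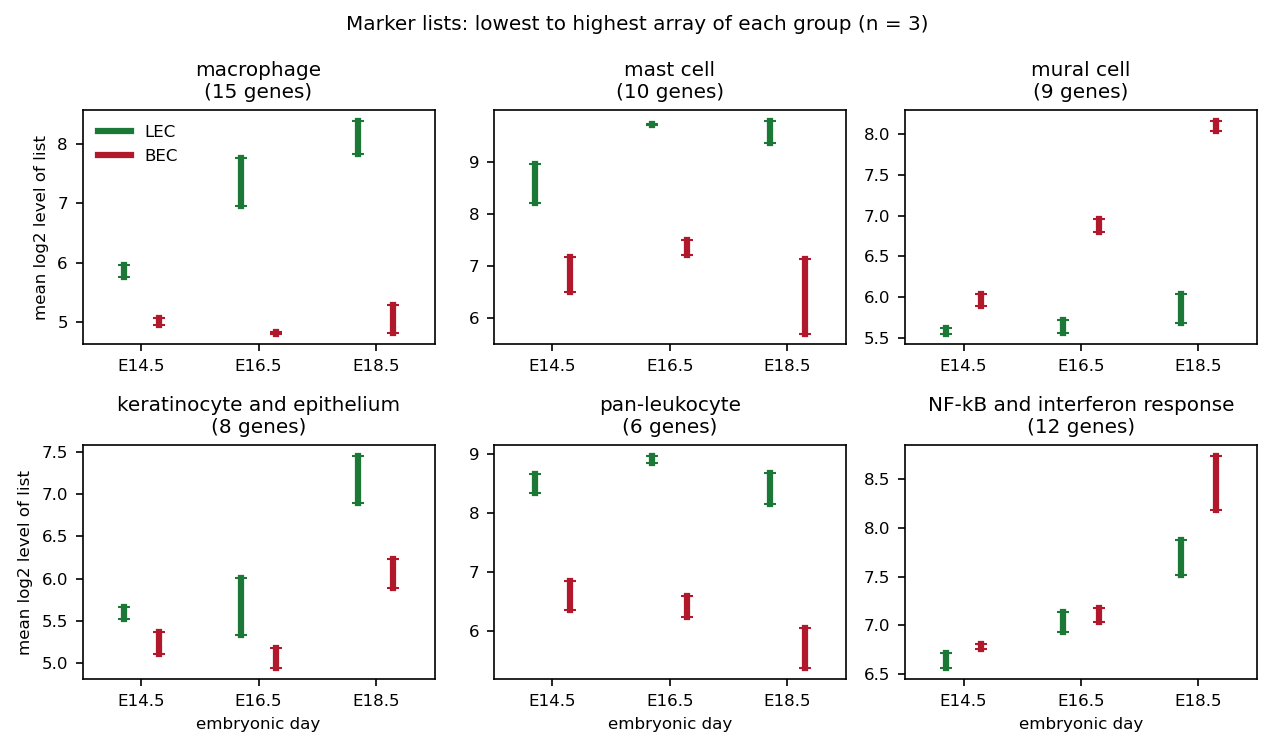
Mean log2 level of 6 gene lists by embryonic day (vertical axis, one scale per list), LEC in green and BEC in red; each bar runs from the lowest to the highest of 3 arrays. Macrophage markers climbed with age in LEC to 7.84 to 8.39, mural cell markers in BEC to 8.03 to 8.16, and the NF-kB and interferon list climbed in both.

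Among the neutrophil-attracting ligands, Cxcl2 and Cxcl1 went opposite ways. Cxcl2, a ligand of Cxcr2, had levels of 5.06, 5.40 and 5.25 in LEC at E14.5, 6.99, 6.24 and 6.44 at E16.5, then 8.68, 7.71 and 7.58 at E18.5. The BEC levels were 4.88, 4.63 and 4.39, then 4.55, 4.65 and 4.48, then 5.45, 5.37 and 5.08. LEC lay above BEC at every age and the gap widened. The difference was 0.60 at E14.5 (adjusted p = 0.094), 1.99 at E16.5 and 2.69 at E18.5 (6.43-fold, adjusted p = 2.4e-08). Cxcl2 rose with age in LEC by 2.75 (6.74-fold, adjusted p = 2.8e-08). Its change of 0.67 in BEC (adjusted p = 0.035) lost its call without BEC E14.5 replicate 2 (0.67) or 3 (0.55), without BEC E18.5 replicate 1 (0.59) or 2 (0.63), or with quantile normalization (0.62, adjusted p = 0.055). The changes differed by 2.09 ± 0.33 (adjusted p = 0.00033). The BEC means of Cxcl2 at E14.5 (4.64) and E16.5 (4.56) were under the dim bound. The sizes of the differences at those ages, of the BEC change and of the difference of the changes are therefore uncertain.

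Cxcl1, which shares the receptor Cxcr2 and lies beside Cxcl2 in the genome, had mean levels of 6.72, 6.88 and 7.37 in LEC and 6.90, 7.24 and 8.44 in BEC. It was lower in LEC at E18.5 (-1.07 ± 0.13, adjusted p = 3.2e-06) but not past the test at E14.5 (-0.18, adjusted p = 0.47) or E16.5 (-0.35, adjusted p = 0.059). With age it rose by 0.65 in LEC and by 1.53 in BEC (adjusted p = 7.6e-08). Both genes, each with the palindromic NF-kB match shown above, rose in LEC, Cxcl2 to a level above BEC and Cxcl1 to one below it. Cxcl3 and Cxcl5 of the same cluster were under the dim bound in all groups, as were the receptors Cxcr1 and Cxcr2.

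Of the 3 interferon-induced ligands, Cxcl10 and Cxcl9 were lower in LEC at E18.5, while Cxcl11 was under the dim bound in all groups and did not pass the test (-0.05, adjusted p = 0.81). Cxcl10, which attracts activated T cells and natural killer cells through Cxcr3, had levels of 4.85, 4.78 and 4.19 in LEC at E14.5, 5.79, 4.95 and 5.65 at E16.5, then 6.96, 7.31 and 6.09 at E18.5. In BEC the levels were 4.77, 4.94 and 5.14, then 6.05, 6.03 and 6.04, then 9.25, 9.65 and 9.12. The groups overlapped at E14.5, while at E16.5 and E18.5 all LEC arrays lay below the BEC arrays. The difference was -0.34 at E14.5 (adjusted p = 0.49), -0.57 at E16.5 (adjusted p = 0.13) and -2.55 ± 0.26 at E18.5 (adjusted p = 2.4e-07). With age Cxcl10 rose by 2.18 ± 0.26 in LEC and by 4.39 ± 0.26 in BEC (21-fold, adjusted p = 1.1e-09), and the changes differed (-2.21 ± 0.37, adjusted p = 0.00057). The LEC mean at E14.5 (4.60) was under the dim bound. The sizes of the E14.5 difference, of the LEC rise and of the difference of the changes are therefore uncertain.

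Cxcl9, another Cxcr3 ligand, was dimmer, with means of 3.91, 3.80 and 3.90 in LEC and 3.74, 3.99 and 4.80 in BEC, so that only the BEC mean at E18.5 passed the dim bound. It was lower in LEC at E18.5 (-0.91 ± 0.14, adjusted p = 3.1e-05) and rose with age in BEC by 1.06 (adjusted p = 7.2e-06), against -0.01 in LEC (adjusted p = 0.95). Its call over the 3 ages (-0.31, adjusted p = 0.0035) was lost without the E18.5 arrays (-0.01, adjusted p = 0.92). The receptor Cxcr3 had means of 4.60, 4.84 and 5.13 in LEC, against 4.38, 4.45 and 4.46 in BEC. Its difference of 0.43 ± 0.12 over the ages (adjusted p = 0.0067) fell to 0.30 (adjusted p = 0.14) without the E18.5 arrays. All BEC means of Cxcr3 and its LEC mean at E14.5 were under the dim bound, so these sizes are uncertain.

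Genes of NF-kB and interferon signalling were read beside these ligands. Of 12 measured, 9 rose with age in LEC and 10 in BEC, 0 fell in either, where 40.9% of all genes were called in LEC (19.7% higher) and 30.6% in BEC (13.3% higher). The median changes were 0.95 in LEC and 1.89 in BEC. At E18.5 1 was higher and 8 were lower in LEC (median -0.64), where 30.4% of all genes were called (15.9% lower). The transcription factor Irf1, itself induced by interferon, had means of 8.01, 8.15 and 9.02 in LEC, against 8.83, 9.69 and 10.95 in BEC, and the interferon-induced Ifit1 rose by 2.46 in LEC and 3.61 in BEC. Most of the list rose in both cell types, as Cxcl10 did, and the part of this signalling in the Cxcl10 level was not tested.

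**Figure D3:**
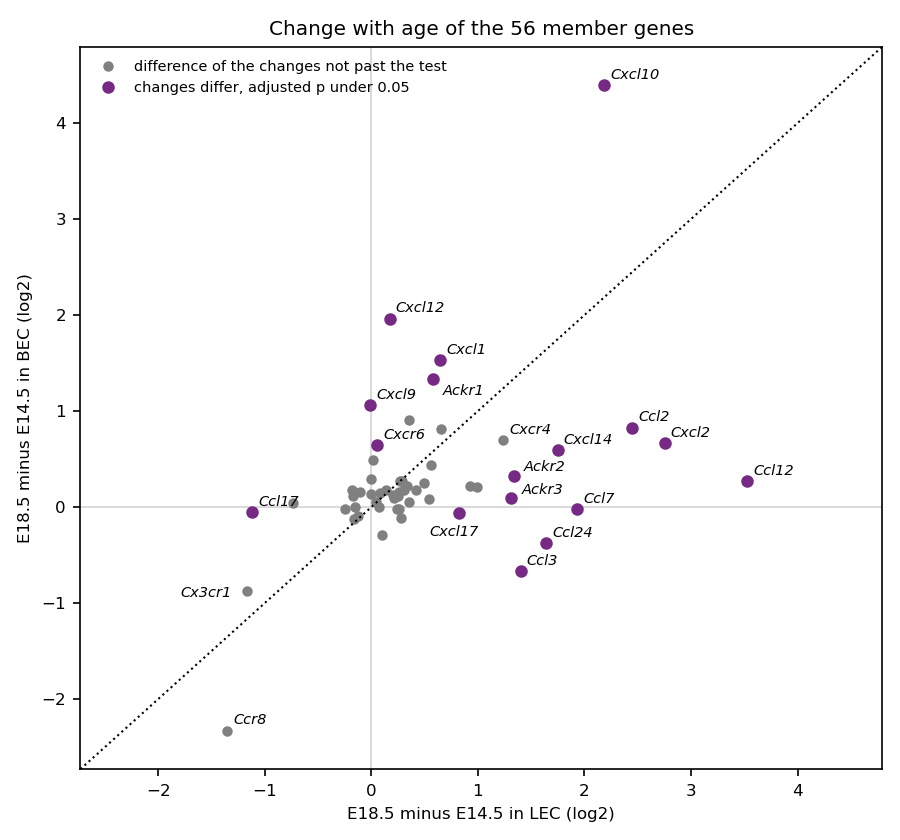
Change from E14.5 to E18.5 of the 56 genes, in LEC on the horizontal and in BEC on the vertical axis (log2); the dotted line marks equal change, and the 17 genes in purple are those whose changes differed between the cell types at an adjusted p under 0.05. Cxcl10, Cxcl12, Cxcl1 and Ackr1 lie above the line and Ccl12, Cxcl2, Ccl2, Ccl7, Ccl24 and Ccl3 below it.

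Among the constitutive ligands, Cxcl12 and Cx3cl1 were lower in LEC at every age. Cxcl12, the ligand of Cxcr4 and Ackr3 that guides arterial and coronary growth as well as leukocytes, had levels of 5.40, 5.24 and 5.22 in LEC at E14.5, 5.20, 5.35 and 5.46 at E16.5, then 5.02, 5.80 and 5.56 at E18.5. In BEC it had 5.88, 6.18 and 6.14, then 7.40, 7.25 and 7.18, then 7.81, 8.16 and 8.11. All LEC arrays lay below all BEC arrays. The differences were -0.78 at E14.5 (adjusted p = 0.0013), -1.94 at E16.5 and -2.57 at E18.5 (adjusted p = 2.4e-10). Cxcl12 rose with age in BEC by 1.96 (3.9-fold, adjusted p = 3.8e-08), against 0.17 in LEC (adjusted p = 0.42), and the changes differed (-1.79 ± 0.22, adjusted p = 3.6e-05). Mural cells, which also make Cxcl12, had markers that were also higher in BEC, with mean levels of 5.55 to 5.62, 5.56 to 5.71 and 5.68 to 6.04 in LEC at the 3 ages, against 5.89 to 6.04, 6.80 to 6.95 and 8.03 to 8.16 in BEC. Of the 9 mural genes 9 rose with age in BEC, where 30.6% of all genes were called (13.3% higher). Pdgfrb had means of 7.76, 7.93 and 6.25 in LEC, against 6.62, 7.86 and 8.84 in BEC. Of the 9 mural genes, 8, 8 and 9 were above the dim bound in LEC, against all 9 at each age in BEC. The part of mural cells in the Cxcl12 level was not tested.

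Cx3cl1, or fractalkine, a ligand that stays tethered to the endothelial surface and binds Cx3cr1, had levels of 5.46, 5.42 and 5.06 in LEC at E14.5, 4.84, 5.55 and 5.41 at E16.5, then 5.28, 5.47 and 4.81 at E18.5. In BEC they were 7.21, 7.36 and 7.33, then 7.50, 7.09 and 7.35, then 6.99, 7.24 and 7.39. The cell types lay apart at every age by about the same distance. The difference over the ages was -2.02 ± 0.11 (adjusted p = 9.2e-12), with -1.99, -2.04 and -2.02 at the 3 ages, and the change with age did not pass the test in LEC or BEC. Its neighbours in the RefSeq order are Ccl22 and Ccl17. Ccl22 did not pass the test over the ages (0.06 ± 0.08, adjusted p = 0.57). Ccl17, a ligand of Ccr4, was higher in LEC at E14.5 (0.70) and E16.5 (0.66) and lower at E18.5 (-0.37, adjusted p = 0.029). That last call was lost without LEC E18.5 replicate 1 (-0.33) or 3 (-0.34) or BEC E18.5 replicate 1 (-0.27) or 3 (-0.37). Ccl17 fell with age in LEC by 1.12 (adjusted p = 7.1e-07).

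Several other homing ligands were higher in LEC. Cxcl14, an epithelial chemokine, was higher in LEC at E18.5 (1.44 ± 0.24, adjusted p = 0.00012), having means of 6.07, 6.03 and 7.81 in LEC against 5.78, 5.42 and 6.38 in BEC. It moved with the keratinocyte markers given above, of which Krt14 had means of 5.71, 5.78 and 8.06 in LEC, against 5.34, 5.17 and 6.38 in BEC. The part of epithelial RNA in it was not tested. Cxcl17, a mucosal chemokine, was higher in LEC at E16.5 (0.92) and E18.5 (1.08, adjusted p = 7.7e-05) and rose with age in LEC by 0.82. Ccl19, the Ccr7 ligand made chiefly by stromal cells of lymph nodes, was higher in LEC by 0.50 ± 0.10 over the ages (adjusted p = 0.00049). Its 5 transcript clusters gave 0.38 to 0.52. Some of these clusters had identical values, so they are not separate measurements and their agreement adds no support. Cxcl16, a transmembrane ligand of Cxcr6, rose with age in both cell types, by 0.65 in LEC and 0.82 in BEC, and did not differ between them past the test (-0.18, adjusted p = 0.15). Ccl20 (0.07, adjusted p = 0.59) did not pass the test either. Of the 13 genes in this group 4 were higher and 3 lower in LEC over the ages, where 37.1% of all genes were called.

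Receptors were fewer above the dim bound, 5 of 11 CC and XC receptors and 3 of 7 CXC and CX3C receptors, and 4 of these, Ccr8, Cx3cr1, Ccr2 and Ccr1, were higher in LEC and Cxcr4 lower, each by over 1 over the 3 ages. Ccr8, the Ccl1 receptor known from T cell subsets and skin leukocytes, had levels of 8.84, 8.89 and 8.30 in LEC at E14.5, 9.53, 9.52 and 9.33 at E16.5, then 7.56, 7.33 and 7.09 at E18.5. In BEC it had 6.55, 6.09 and 5.48, then 5.99, 6.34 and 5.51, then 3.92, 3.61 and 3.60. All LEC arrays lay above all BEC arrays, and those of BEC at E18.5 were under the dim bound. The difference over the 3 ages was 3.25 ± 0.14 (adjusted p = 2.5e-13), a size that is uncertain because of those dim arrays. With age Ccr8 changed by -1.35 in LEC (adjusted p = 0.00013), against -2.33 in BEC (adjusted p = 4.7e-07), and the difference of the changes missed the threshold (0.98 ± 0.33, adjusted p = 0.08).

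Cx3cr1, the fractalkine receptor of monocytes and tissue macrophages, lies next to Ccr8 in the RefSeq order and was also higher in LEC. Its levels were 8.54, 8.44 and 8.19 in LEC at E14.5, 8.23, 8.08 and 8.64 at E16.5, then 7.40, 7.41 and 6.88 at E18.5. The BEC levels were 6.45, 6.12 and 5.88, then 5.72, 5.83 and 5.43, then 5.16, 5.20 and 5.48. LEC lay above BEC throughout, by 2.28 ± 0.10 over the ages (4.87-fold, adjusted p = 8.7e-13). With age it fell in both, with a change of -1.16 in LEC (adjusted p = 3.7e-05), against -0.88 in BEC (adjusted p = 0.00094). The receptor was thus higher in LEC and its ligand Cx3cl1 lower. From E14.5 to E18.5, 13 of 15 macrophage markers rose in LEC, and of 6 pan-leukocyte genes 3 rose and 2 fell. Over that interval 40.9% of all genes were called in LEC (19.7% higher and 21.2% lower). The part of these cells in the Cx3cr1 level was not tested.

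Ccr2, the receptor of Ccl2, Ccl7 and Ccl12, had means of 5.37, 5.25 and 4.63 in LEC, against 3.67, 3.52 and 3.71 in BEC, all of the BEC means under the dim bound. The difference was 1.45 ± 0.12 (adjusted p = 4.6e-09), and its fall with age in LEC by 0.74 (adjusted p = 0.0069) was lost without LEC E14.5 replicate 1 (-0.53, adjusted p = 0.055). The LEC mean of Ccr2 at E18.5 also lay under the dim bound, so the size of this fall is uncertain. Over the same days its ligands Ccl2, Ccl7 and Ccl12 rose in LEC. Ccr1, the receptor of Ccl3 and Ccl9, had means of 3.90, 4.77 and 4.83 in LEC, against 3.06, 3.17 and 3.28 in BEC, and differed by 1.33 ± 0.13 (adjusted p = 8.2e-08). Its rise with age in LEC was 0.93 (adjusted p = 0.0028). All BEC means of Ccr1 and its LEC mean at E14.5 were under the dim bound, so these sizes are uncertain. At E14.5 the call of the Ccr1 difference (0.84, adjusted p = 0.013) was lost without BEC E14.5 replicate 1 (0.68) or LEC E14.5 replicate 2 (0.76). Ccr7, the Ccl19 receptor of dendritic and T cells, lay a little lower in LEC (-0.33 ± 0.07, adjusted p = 0.00049), and Ccr10 did not pass the test (-0.03, adjusted p = 0.88).

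Cxcr4, the Cxcl12 receptor found on tip cells of growing blood vessels and on most leukocytes, had levels of 7.01, 6.99 and 7.01 in LEC at E14.5, 7.40, 7.61 and 7.08 at E16.5, then 7.99, 8.58 and 8.16 at E18.5. In BEC the levels were 9.71, 9.28 and 9.55, then 10.03, 9.88 and 9.69, then 10.23, 9.86 and 10.54. Each LEC array lay below each BEC array. The difference was -2.33 ± 0.10 over the ages (adjusted p = 5.4e-13), with -2.51, -2.50 and -1.97 at the 3 ages. Cxcr4 rose with age in both, by 1.24 in LEC (adjusted p = 1.6e-05), against 0.70 in BEC (adjusted p = 0.0054), and the difference of the changes missed the threshold (0.54, adjusted p = 0.22).

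The atypical receptors split between the cell types. Ackr2, the scavenger of inflammatory CC chemokines, had means of 5.94, 6.40 and 7.28 in LEC, against 5.16, 4.84 and 5.49 in BEC. It was higher in LEC at every age, by 0.78, 1.56 and 1.79, and by 1.37 ± 0.11 over them (adjusted p = 5.5e-09). It rose with age in LEC by 1.34 (adjusted p = 1.9e-05), against 0.33 in BEC (adjusted p = 0.23).

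Ackr3, which takes up Cxcl12 as a scavenger, had means of 4.51, 4.57 and 5.83 in LEC, against 5.48, 5.53 and 5.57 in BEC. LEC had the lower level at E14.5 (-0.97, adjusted p = 0.00077) and E16.5 (-0.96, adjusted p = 0.00055), and the difference did not pass the test at E18.5 (0.26, adjusted p = 0.33). It rose with age in LEC by 1.31 (adjusted p = 1.4e-05), against 0.09 in BEC (adjusted p = 0.77). These changes differed by 1.22 ± 0.26 (adjusted p = 0.0053). The LEC means of Ackr3 at E14.5 and E16.5 were under the dim bound, so these sizes are uncertain. Ackr1, the venular receptor known as the Duffy antigen, had means of 3.57, 3.90 and 4.15 in LEC, against 3.99, 4.09 and 5.33 in BEC, and only the BEC mean of E18.5 passed the dim bound. It was lower in LEC at that age (-1.18 ± 0.14, adjusted p = 1.4e-06) and rose with age in BEC by 1.34 and in LEC by 0.58. Ackr4, the scavenger of Ccl19 and Ccl21, was under the dim bound in all groups.

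**Figure D4:**
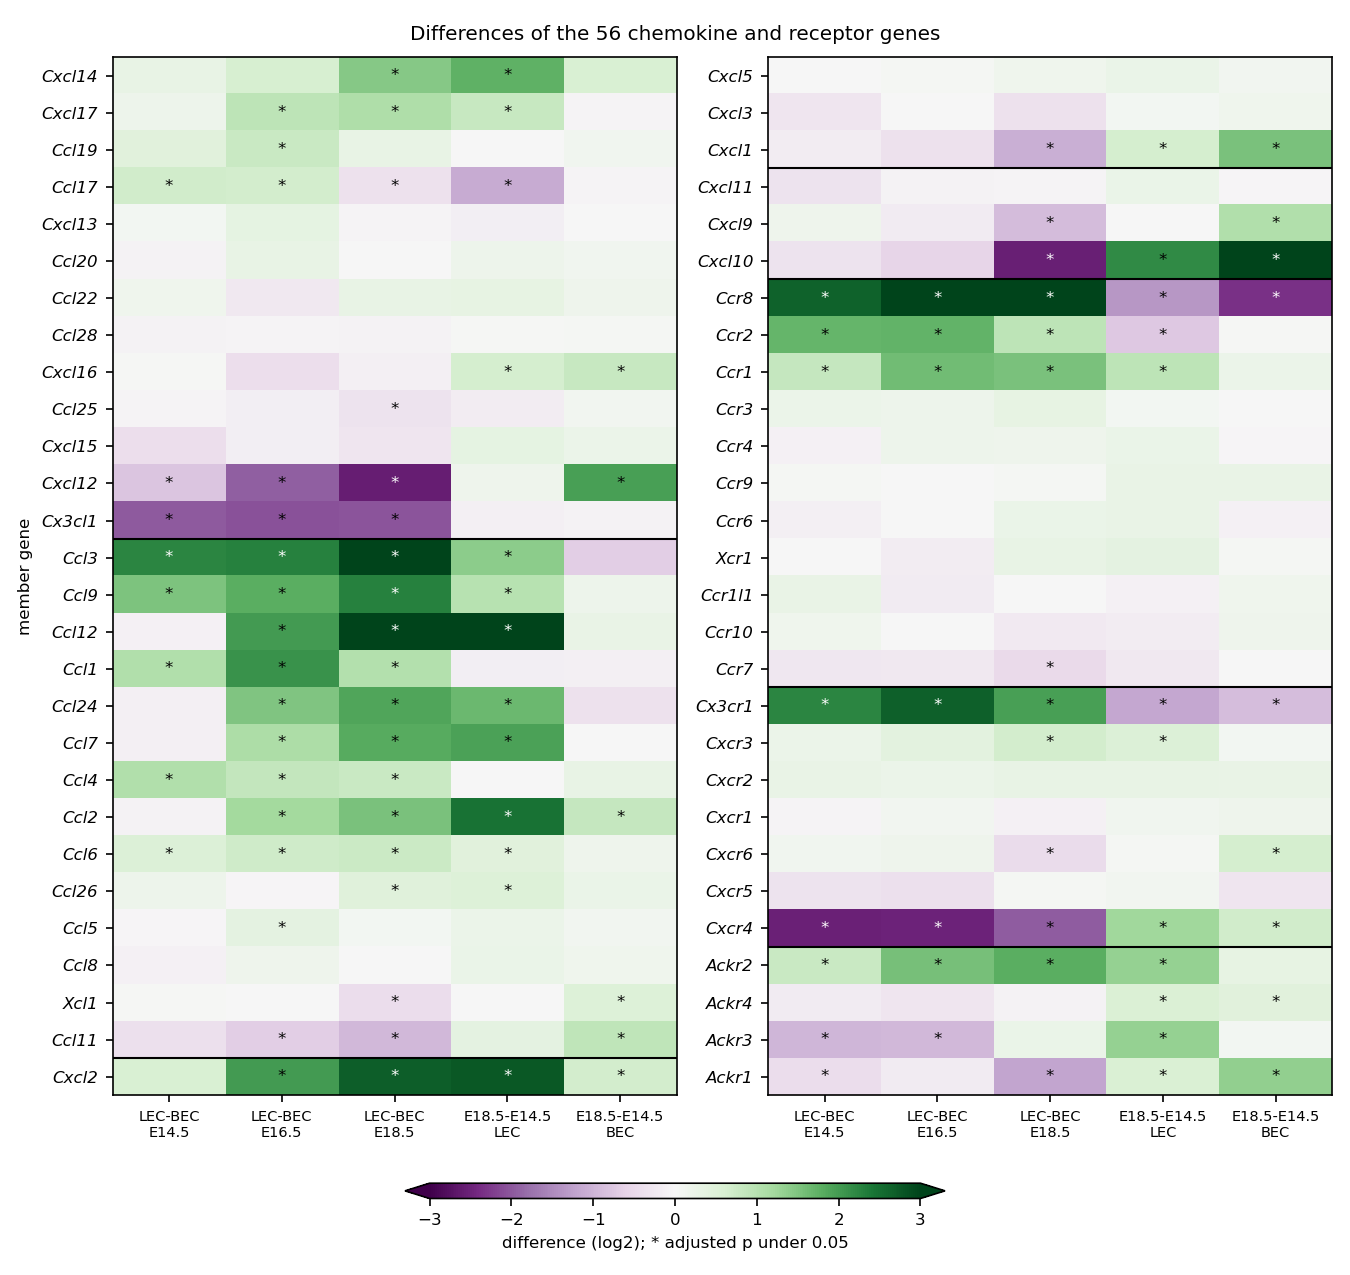
Differences of the 56 genes by role (genes down, 5 comparisons across), green where the group named before the minus sign is higher and purple where it is lower, with the colour scale ending at 3; stars mark an adjusted p under 0.05 and black lines separate the roles. The inflammatory CC ligands form a green block at E16.5 and E18.5, where 10 of 14 were called higher in LEC at E18.5.

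Genes that act after the receptors were read as a list of 26 measured genes of receptor signal transduction. Of these 14 were higher and 7 lower in LEC over the ages (median 0.29), against 37.1% of all genes called. The higher ones include Rgs1, which shortens G protein signals in leukocytes (3.67 ± 0.20), the haematopoietic GTPase Rac2 (2.77), its activator Dock2 (2.75), the phospholipase Plcb2 (2.54), the exchange factor Vav1 (2.13) and the inhibitory G protein subunit Gnai1 (1.58). Apart from Gnai1 these are known mainly from blood cells, and the pan-leukocyte markers given above were also higher in LEC. The part of leukocytes in the levels of these genes was not tested. With age 10 of the 26 rose and 8 fell in LEC (40.9% of all genes called), and 3 rose and 9 fell in BEC (30.6%).

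Of 18 genes that present or process chemokines, 11 were higher and 1 lower in LEC over the ages (median 0.43), against 37.1% of all genes called (18.2% higher and 19% lower). Heparan sulphate modifying enzymes led them, with the sulphotransferases Hs6st2 (2.81 ± 0.12, adjusted p = 2.5e-13), Ndst2 (1.86) and Hs3st1 (1.66) and the extracellular sulphatase Sulf2 (1.57). Hs6st2 had means of 7.47, 8.69 and 8.51 in LEC, against 5.56, 5.87 and 4.83 in BEC. The mast cell and pan-leukocyte markers given above were also higher in LEC. The part of those cells in the levels of these enzymes was not tested.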

How the data were processed

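RNA of LEC and BEC was measured on 18 arrays. Per the submitters' processing notes, the tools were RMA and oligo 1.54.1. The deposited values were taken to be on the log2 scale that RMA gives, which their range fits. Whether all arrays were normalized together is not given in the sources used here. Arrays give no read depth, and precision depends on how many there are. Of 35556 transcript clusters, 23410 are in the platform annotation. Of these 21789 had 1 gene symbol, 1621 had several and were not used (7 of them carried a symbol of the name pattern), and 12146 clusters are unnamed here. Entrez identifiers of 21698 clusters matched the RefSeq gene table, and 0 symbols changed. The cluster with the highest mean was kept for the 999 genes with more than 1. The 56 genes had 61 clusters.

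The model, a mean per group over the 18 arrays, was run in R 4.3.3 using limma 3.58.1 (moderated test), with 12 residual and 6.11 prior degrees of freedom, for 13 contrasts, without a filter on dim genes and without pairing. P-values are two-sided, adjusted within a contrast over the 19938 genes, and the fit was tested on simulated data. Correlations of the residuals of same-numbered LEC and BEC arrays were -0.107 to 0.13, and no label states that a number names a litter, so the numbers were not taken to pair them. The members, roles and lists were chosen with earlier results of these data known. Members called with a difference of at least 1 and brighter than the dim bound are described with values, and the 12 with the largest differences by array; others are named with their role group. Genes of the lists are named where called at 1 or more, or as defining markers. Alternatives were other scalings, filters, variance models, a replicate block, fits without E18.5 and leaving out each array.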

Additional observations from a re-analysis of the deposited data

Results flagged for a closer look

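The change with age differed between LEC and BEC, by the test of the difference itself (limma, adjusted over all genes), for the values below, each given as the change in LEC minus the change in BEC. No explanation was tested for any of them.

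From E14.5 to E18.5 the change was greater in LEC for Ccl12 (3.26), Cxcl2 (2.09), Ccl3 (2.07), Ccl24 (2.02), Ccl7 (1.95), Ccl2 (1.62), Ackr3 (1.22), Cxcl14 (1.15), Ackr2 (1.01) and Cxcl17 (0.88). It was greater in BEC for Cxcl10 (-2.21), Cxcl12 (-1.79), Cxcl9 (-1.08), Ccl17 (-1.07, from a fall in LEC), Cxcl1 (-0.88), Ackr1 (-0.76) and Cxcr6 (-0.60, under the dim bound in all groups). The call was lost for Ackr1 without LEC E14.5 replicate 2 (-0.69) or BEC E14.5 replicate 2 (-0.70). For Ackr2 the call was lost without any 1 of LEC E14.5 replicate 1 or 2, LEC E18.5 replicate 2 or 3, BEC E14.5 replicate 2 or 3, BEC E18.5 replicate 1 (0.81 to 1.00). For Cxcl14 the call was lost without any 1 of LEC E14.5 replicate 2 or 3, LEC E18.5 replicate 2 or 3, BEC E14.5 replicate 1, 2 or 3, BEC E18.5 replicate 1 or 2 (1.01 to 1.19). For Cxcl17 the call was lost without any 1 of LEC E14.5 replicate 1 or 2, LEC E18.5 replicate 2 or 3, BEC E14.5 replicate 1 or 2, BEC E18.5 replicate 1 or 3 (0.73 to 0.90).

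Between E14.5 and E16.5 the changes already differed for 5 genes toward LEC, Ccl12 (2.12), Ccl24 (1.61), Cxcl2 (1.39), Ccl2 (1.27) and Ccl7 (1.24), and for Cxcl12 toward BEC (-1.16), against 2.63% of all genes called. For Ccl24 the call was lost without any 1 of LEC E16.5 replicate 1 or 3, BEC E16.5 replicate 3, LEC E14.5 replicate 1, BEC E14.5 replicate 2 (1.38 to 1.54), and with the replicate block (1.61, adjusted p = 0.064). For Cxcl2 the call was lost without any 1 of LEC E16.5 replicate 1, LEC E14.5 replicate 1 or 3, BEC E14.5 replicate 1 or 2, BEC E16.5 replicate 1 or 3 (1.18 to 1.40). Between E16.5 and E18.5 they differed for Ccl3 (2.01) and Ackr3 (1.22) toward LEC, against 3.65% of all genes called. Toward BEC they differed for Cxcl10 (-1.98), Ccl1 (-1.07), Ccl17 (-1.03), Ackr1 (-0.98), Cxcl1 (-0.71), Cxcl9 (-0.71) and Cxcr6 (-0.64). For Cxcr6 the call was lost without any 1 of LEC E16.5 replicate 3, BEC E16.5 replicate 1, BEC E18.5 replicate 2 (-0.63 to -0.54). For Ccl1 the call was lost without any 1 of LEC E16.5 replicate 1 or 2, LEC E18.5 replicate 2 or 3, BEC E16.5 replicate 1, 2 or 3, BEC E18.5 replicate 1 or 2 (-1.10 to -0.89). For Cxcl1 the call was lost without any 1 of LEC E16.5 replicate 1, 2 or 3, LEC E14.5 replicate 1, 2 or 3, LEC E18.5 replicate 2, BEC E14.5 replicate 2, BEC E16.5 replicate 1, 2 or 3, BEC E18.5 replicate 2 or 3 (-0.77 to -0.57), and with the replicate block (-0.71, adjusted p = 0.097). For Cxcl9 the call was lost without any 1 of LEC E16.5 replicate 1, 2 or 3, LEC E14.5 replicate 1 or 2, LEC E18.5 replicate 1, 2 or 3, BEC E14.5 replicate 1, 2 or 3, BEC E16.5 replicate 2 or 3, BEC E18.5 replicate 3 (-0.76 to -0.54), and with the replicate block (-0.71, adjusted p = 0.06).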

How the results depend on the processing

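Of 237 called results of the 56 genes, 185 kept their call under every alternative, 52 lost it under at least 1, and 47 of these lost it when 1 array was left out. The call of Ccl25 at E18.5 turned to 0.0030 with the mean of its transcript clusters. With a common median 17 genes were lower in LEC over the ages (11 otherwise) and 11 at E16.5 (5 otherwise), where the median of all genes was then -0.109, against -0.002 as deposited. Quantile normalization gave 8 lower at E16.5, 1 falling in BEC from E14.5 to E16.5, 10 rising in BEC from E16.5 to E18.5, and differing changes toward LEC for 3 genes in the earlier and 4 in the later interval. Array weights gave 9 lower at E16.5, 3 falling in LEC and 4 rising and 6 falling in BEC from E14.5 to E16.5, and differing changes for 8 genes toward LEC in the earlier and 4 toward BEC in the later interval. Without variance moderation 2 fell in LEC in the earlier interval, and changes differed for 3 genes toward LEC in it and for 1 toward LEC and 4 toward BEC in the later. Fitting only the groups compared gave 4 falling in BEC in the earlier interval, and 1 toward LEC and 3 toward BEC in the later. Without the E18.5 arrays 4 rose in BEC from E14.5 to E16.5. The cause of these shifts was not tested.

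Leaving out each of the 18 arrays gave 20 to 23 higher and 10 to 14 lower in LEC over the ages, 10 to 12 and 4 to 5 at E14.5, 18 to 21 and 5 to 7 for E16.5, and 17 to 20 and 11 to 13 for E18.5. From E14.5 to E16.5, 5 to 10 rose and 1 fell in LEC, and 1 to 2 rose and 1 to 3 fell in BEC. From E16.5 to E18.5, 17 to 21 rose and 4 to 5 fell in LEC, and 15 to 20 rose and 2 fell in BEC. From E14.5 to E18.5, 20 to 22 rose and 3 to 4 fell in LEC, and 11 to 14 rose and 2 to 3 fell in BEC. Changes differed toward LEC for 3 to 6, 2 to 4 and 7 to 10 genes and toward BEC for 1, 4 to 6 and 6 to 7, in the earlier, later and whole interval. The earlier count toward LEC was 3 without LEC E16.5 replicate 1, LEC E14.5 replicate 1, BEC E16.5 replicate 3 or BEC E14.5 replicate 2. In the later interval the count toward LEC was 4 without LEC E16.5 replicate 3, and that toward BEC was 4 without any 1 of the E16.5 arrays or BEC E18.5 replicate 2. With all arrays that count toward BEC was 7, which lies outside the range of 4 to 6.

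With the replicate block, 21 genes were higher and 11 lower over the ages, 11 and 5 at E14.5, 20 and 7 for E16.5, 19 and 12 for E18.5, and no count moved by over 1.5 times. The design text matches LEC and BEC of an age by litter, but no label states that the replicate number names the litter, and 3 of 9 residual correlations of same-numbered arrays were over 0.1. The block ended the calls of Ackr1 at E14.5 (-0.42, adjusted p = 0.083), Xcl1 at E18.5 (-0.44, adjusted p = 0.07), Ccl25 (-0.18, adjusted p = 0.05) and Ccr3 (0.25, adjusted p = 0.069) over the ages, and 3 differing changes named above. Precision is limited by 3 arrays a group, and differences of genes near the dim bound are uncertain in size.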

Other observations

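Related genes outside the name pattern also differed. Of 9, 4 were higher and 3 lower in LEC over the 3 ages, where 37.1% of all genes were called. Pf4, a platelet and megakaryocyte CXC chemokine that macrophages can also make, had means of 5.58, 8.08 and 8.84 in LEC at the 3 ages, against 5.83, 5.03 and 4.57 in BEC. It was higher in LEC by 4.27 at E18.5 and rose with age there by 3.25 (limma, adjusted p = 4.3e-08), while it fell in BEC by 1.27 (adjusted p = 0.0019). At E18.5, 1 of 4 platelet genes was higher and 0 lower in LEC (30.4% of all genes called). With age 1 rose and 1 fell in LEC (40.9% of all genes called), while 0 rose and 3 fell in BEC (30.6%). Itga2b, a platelet marker, had means of 5.76, 6.48 and 6.31 in LEC, against 6.42, 6.10 and 5.93 in BEC. The part of platelets or macrophages in the Pf4 level was not tested. Ccrl2, an atypical receptor that binds chemerin, had means of 7.93, 9.19 and 7.27 in LEC, against 5.68, 6.36 and 5.32 in BEC, a difference of 2.34 ± 0.10 (adjusted p = 3.9e-13). Mif, a cytokine that binds Cxcr4 and Cxcr2, fell with age in both, by 1.88 in LEC and 1.78 in BEC.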
